A study of Rattus norvegicus with 10 samples.

Results

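Ankyrin repeat and SOCS box (Asb) genes encode proteins that bring substrates to a ubiquitin ligase, and 8 of them (Asb2, Asb8, Asb10, Asb11, Asb12, Asb14, Asb15 and Asb18) are described here in fetal rat hearts. They were picked by symbol, with the striated muscle members included, from the 18025 genes in the deposited values, and they were chosen from a comparison of hyperglycemic with control hearts in these same libraries, so their differences between those groups are given as a description without a test. Messenger RNA was measured in hearts of wild-type fetuses at embryonic day 19.5, which Sprague-Dawley dams aged 3 months had conceived with males of that strain. Dams of the hyperglycemia group (HG, 5 libraries) were injected into the abdomen on 3 successive days with streptozotocin, a toxin of the insulin-producing beta cell, in citric acid buffer. Control dams (CON, 5 libraries) received that buffer alone on the same schedule. The methods of the study place the injections after mating, whereas its introduction places the hyperglycemia before pregnancy. Diabetes in the HG dams was defined by a glucose level above 16 mM in non-fasted blood 7 days after injection. Because the drug was given to the dam, its own effects and those of high glucose cannot be told apart. The labels name heart tissue, whereas a legend of the study speaks of isolated cardiomyocytes for this comparison. Neither litters nor sexes are named, so p-values measure the spread between these libraries, which may share a dam.

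In an Asb protein the ankyrin repeats hold the substrate and the SOCS box binds elongin B and elongin C, which dock on the scaffold cullin-5 and its RING partner Rbx2, encoded by Rnf7. The ligase is switched on when the modifier NEDD8 is attached to cullin-5. Several Asb genes are enriched in skeletal and cardiac muscle, where Asb2 is best known for directing the degradation of filamins, the actin cross-linkers of the Z-disc and cell cortex. Asb8 is expressed in many tissues.

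The 250 bases upstream of the annotated start were read from RefSeq windows (build GRCr8) for 7 of the 8 genes, and 4 are printed because they come from the gene that differed most between the groups (Asb15), from the 2 genes whose windows hold a muscle MEF2 motif (Asb18 and Asb14), and from the most abundant member (Asb2). Each runs 5′ to 3′ on the strand of its gene. Capitals mark E-boxes (CANNTG), which myogenic and other basic helix-loop-helix factors bind, MCAT elements (CATTCC), bound by TEAD factors, and the MEF2 motif.
Asb15: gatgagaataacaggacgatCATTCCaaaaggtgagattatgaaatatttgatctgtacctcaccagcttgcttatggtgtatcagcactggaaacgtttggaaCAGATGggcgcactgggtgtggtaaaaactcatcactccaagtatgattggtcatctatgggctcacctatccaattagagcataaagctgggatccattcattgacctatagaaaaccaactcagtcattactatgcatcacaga
Asb18: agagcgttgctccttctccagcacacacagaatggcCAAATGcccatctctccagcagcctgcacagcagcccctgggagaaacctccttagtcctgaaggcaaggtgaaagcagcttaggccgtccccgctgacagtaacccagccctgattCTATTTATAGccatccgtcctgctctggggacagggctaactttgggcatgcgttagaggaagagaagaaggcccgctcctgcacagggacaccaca
Asb14: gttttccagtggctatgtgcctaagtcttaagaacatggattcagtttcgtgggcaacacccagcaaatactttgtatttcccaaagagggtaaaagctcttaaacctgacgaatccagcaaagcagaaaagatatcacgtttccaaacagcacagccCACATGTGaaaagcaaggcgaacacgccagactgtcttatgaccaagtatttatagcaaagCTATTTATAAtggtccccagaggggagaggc
Asb2: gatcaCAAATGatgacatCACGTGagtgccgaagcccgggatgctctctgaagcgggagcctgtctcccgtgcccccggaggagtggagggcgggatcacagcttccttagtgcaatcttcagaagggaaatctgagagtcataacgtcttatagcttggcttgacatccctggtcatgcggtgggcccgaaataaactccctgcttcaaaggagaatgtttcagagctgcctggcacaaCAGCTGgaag
The windows lie at chr4:53986967-53987216 (plus strand) for Asb15, chr9:98043471-98043720 (minus strand) for Asb18, chr16:2102126-2102375 (plus strand) for Asb14 and chr6:128275651-128275900 (minus strand) for Asb2.

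Both strands of every window were searched. A MEF2 motif was found 97 bases upstream of the Asb18 start and 31 bases upstream of the Asb14 start, and such a motif is held by 2.96% of the 33469 windows of all genes. At both places it overlaps a TATAAA match, a motif held by 12.9% of windows. The Asb15 window has 1 MCAT element, 230 bases upstream (12.1% of windows), and 1 E-box, 146 bases upstream (65.5% of windows), with no MEF2 and no CArG box match in these letters. A second annotated start of Asb15 has the same E-box and no MCAT element in its window. Asb2 has 3 E-boxes, Asb8 and Asb10 have 2 each, and Asb12 has none of the motifs searched. GATAA, held by 23.5% of windows, was found in Asb8, and a CArG box, held by 1.5%, in none of the 7 genes. The share of G and C was 41.6% in the Asb15 window and 44.0% in that of Asb14, and 56.8% in that of Asb18, against a median of 51.2% over all windows. These matches are letters in a window and are not evidence of binding.

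Values are FPKM, the read number of a gene per kilobase of its length and relative to the reads of its library, so levels can be set side by side between genes. The libraries held 17639895 to 18240006 reads on genes in CON and 16672876 to 19109844 in HG. Members of the same group correlated at 0.988 or more across genes. All 15 cardiomyocyte markers passed the filter. CON 3 stood apart in liver transcripts, with albumin (Alb) at 34.9 FPKM. CON 1 stood apart in the summed level of skeletal muscle markers, at 65.3 FPKM against 49.0 to 50.3 FPKM in the other CON libraries. Most of that gap lay in 1 marker that the heart also expresses, Casq1, at 57.2 FPKM in CON 1 against 40.0 to 42.8 FPKM. Transcripts of the Y chromosome were high in CON 1, CON 4, HG 1 and HG 3. Differences between groups are given as log2 fold changes, the mean of log2(FPKM + 0.1) in HG minus that in CON, with the standard error (SE). The added 0.1 shrinks differences of weakly expressed genes.

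All 8 genes passed the filter of a mean of 0.1 FPKM, and all 8 had a lower mean log2 level in HG. Asb15, Asb11 and Asb18 lay beyond a fold of 2 (log2 fold change under -1), which 1.18% of the 14542 genes tested did, and 0 members lay above 1, which 1.00% of genes did. The 5 HG libraries lay below all 5 CON libraries for Asb15, Asb11, Asb18, Asb14 and Asb10, whereas the groups overlapped for Asb12, Asb2 and Asb8. Of all genes tested, 8.12% had groups that did not overlap with HG lower, and 19.3% with HG higher. The median log2 fold change was -0.87 over the 8 genes and 0.09 over all genes tested. Since the members were selected on this contrast, nothing about the family follows from these counts.

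**Figure D1:**
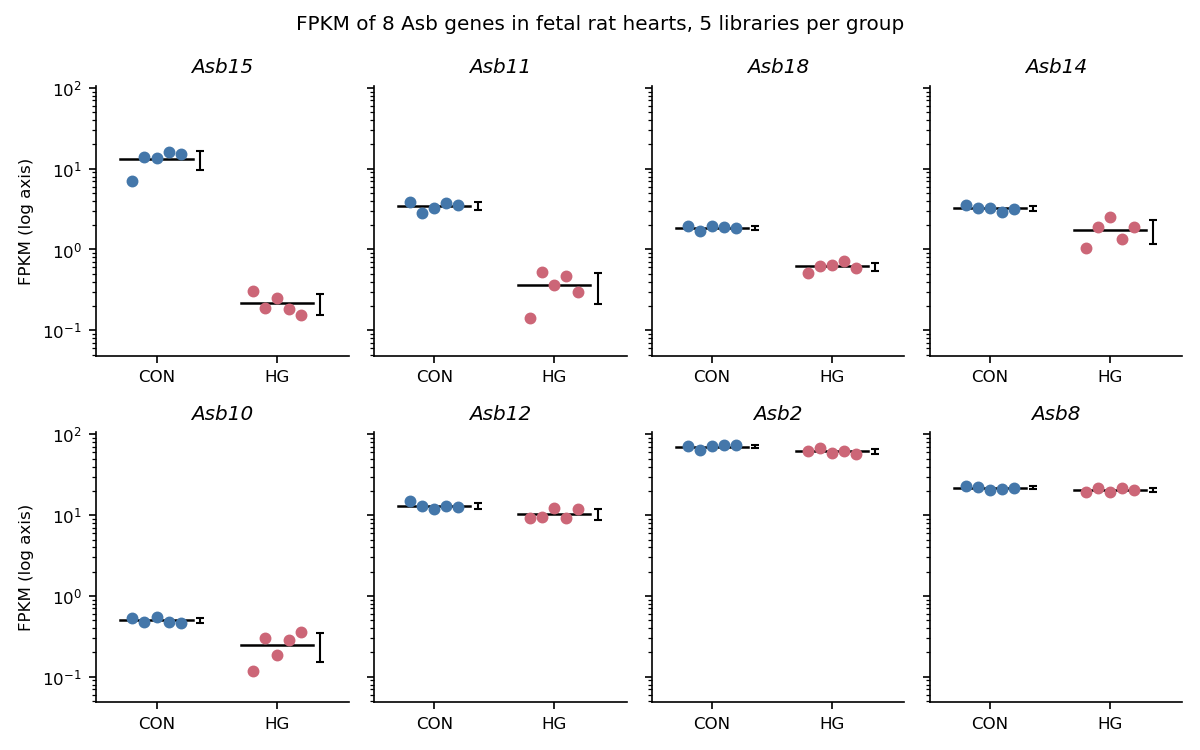
FPKM (log axis) of the 8 Asb genes in the 5 CON (blue) and 5 HG (red) libraries, with points in the order of the library number, horizontal lines at the group mean and bars for the SD beside them. Asb15 lies between 0.153 and 0.304 FPKM in HG and between 7.05 and 16.0 FPKM in CON, whereas the Asb8 points of the groups interleave. The Asb2 groups overlap only because CON 2 (64.5 FPKM) lies below HG 2 (67.0 FPKM).

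Asb15, a gene of striated muscle linked to muscle growth, had the lowest log2 fold change of all 14542 genes. It stood at 7.05, 13.8, 13.4, 16.0 and 15.1 FPKM in CON 1 to CON 5 and at 0.304, 0.189, 0.254, 0.184 and 0.153 FPKM in HG 1 to HG 5. Every HG library was far below every CON library, and CON 1 was well below the other CON libraries. The CON mean was 13.0 ± 3.51 FPKM and the HG mean 0.217 ± 0.0608 FPKM (SD, n = 5 each), a ratio of 60.2 and a log2 fold change of -5.34 (SE 0.21). Without CON 1 the log2 fold change was -5.55, and without CON 3 it was -5.32. With Y chromosome transcripts as a covariate it was -5.34.

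The HG values of Asb15 rest on 11 to 25 reads per library, against 550 to 1252 reads in CON. Counting alone would give a coefficient of variation of 24.4% at the HG mean of 16.8 reads, and 28.1% was observed. In CON counting would give 3.15% and 26.9% was observed, so the spread among control hearts was well beyond counting error and among HG hearts was near it. The size of the difference depends on the added constant, from -3.48 with 1 FPKM to -5.83 with 0.01 FPKM, and the ratio of means gives -5.91.

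Asb11, X-linked and studied in progenitor cells and in the stress response of the endoplasmic reticulum, had a lower log2 fold change than all but 4 genes. Its levels were 3.91, 2.86, 3.30, 3.72 and 3.52 FPKM in CON 1 to CON 5 and 0.143, 0.519, 0.367, 0.463 and 0.300 FPKM in HG 1 to HG 5. All HG libraries were below all CON libraries, and HG 1 was the lowest. The means were 3.46 ± 0.406 and 0.358 ± 0.147 FPKM (SD, n = 5 each), with a ratio of 9.66 and a log2 fold change of -3.02 (SE 0.22). Reads numbered 115 to 156 per library in CON and 6 to 21 in HG. The HG coefficient of variation was 41.1%, where counting at the mean of 14.0 reads gives 26.7%.

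Asb18, an adaptor of striated muscle with few known substrates, was the third member beyond a fold of 2. CON 1 to CON 5 held 1.96, 1.68, 1.93, 1.90 and 1.83 FPKM and HG 1 to HG 5 held 0.517, 0.617, 0.641, 0.712 and 0.593 FPKM. The groups were tight and wide apart. Their means were 1.86 ± 0.109 and 0.616 ± 0.0708 FPKM (SD, n = 5 each), with a log2 fold change of -1.46 (SE 0.10), from 149 to 172 reads in CON and 48 to 61 in HG. Of the members beyond a fold of 2 it had the smallest difference, and Asb14, at -0.92, was the nearest on the other side of that limit. With an added constant of 1 FPKM the Asb18 value was -0.82, which no longer passed the limit.

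Asb14, another muscle-enriched adaptor, gave 3.58, 3.24, 3.28, 2.95 and 3.18 FPKM in CON 1 to CON 5 and 1.03, 1.89, 2.52, 1.36 and 1.90 FPKM in HG 1 to HG 5. The groups did not overlap, and HG 3 was the HG library nearest to the controls. The means were 3.24 ± 0.226 and 1.74 ± 0.571 FPKM (SD, n = 5 each) and the log2 fold change was -0.92 (SE 0.18). The spread among HG libraries, 32.8%, was well above the 11.8% that counting gives at a mean of 71.8 reads. Without HG 3 the log2 fold change was -1.06, and without HG 1 it was -0.76.

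Asb10, known from studies of glaucoma and expressed in muscle, was the least abundant member. It stood at 0.529, 0.476, 0.544, 0.477 and 0.465 FPKM in CON 1 to CON 5 and at 0.119, 0.298, 0.184, 0.285 and 0.356 FPKM in HG 1 to HG 5. The groups did not overlap, on 18 to 21 reads in each CON library and 5 to 13 in each HG library. Means were 0.498 ± 0.0358 and 0.248 ± 0.0950 FPKM (SD, n = 5 each), with a log2 fold change of -0.82 (SE 0.20) that became -0.27 with an added constant of 1 FPKM and -1.07 with voom on the recovered reads.

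Asb12, the other X-linked member and a gene of muscle, differed less. Its levels were 15.2, 12.8, 11.8, 12.9 and 12.7 FPKM in CON 1 to CON 5 and 9.12, 9.55, 12.4, 9.13 and 11.9 FPKM in HG 1 to HG 5. HG 3 and HG 5 lay within the control range and the rest of HG below it. The means were 13.1 ± 1.26 and 10.4 ± 1.59 FPKM (SD, n = 5 each), with a log2 fold change of -0.34 (SE 0.097).

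Asb2, the receptor for filamins, was by far the most abundant member. CON 1 to CON 5 held 71.4, 64.5, 72.0, 73.3 and 72.9 FPKM and HG 1 to HG 5 held 62.8, 67.0, 58.9, 62.3 and 56.6 FPKM. CON 2 lay below HG 2, so that the groups overlapped. The means were 70.8 ± 3.62 and 61.5 ± 3.97 FPKM (SD, n = 5 each) and the log2 fold change was -0.20 (SE 0.0505), on 4645 reads or more in each library.

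Asb8, the broadly expressed member, showed the smallest difference. It gave 23.1, 22.2, 20.5, 21.4 and 21.8 FPKM in CON 1 to CON 5 and 19.5, 21.8, 19.6, 21.9 and 20.3 FPKM in HG 1 to HG 5. The groups interleaved. Means were 21.8 ± 0.990 and 20.6 ± 1.15 FPKM (SD, n = 5 each), with a log2 fold change of -0.08 (SE 0.048).

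The order of levels differed between the groups. In CON it ran Asb2, Asb8, Asb12, Asb15, Asb11, Asb14, Asb18 and Asb10, and the ranges of neighbours overlapped for Asb12 with Asb15 and for Asb11 with Asb14. In HG it ran Asb2, Asb8, Asb12, Asb14, Asb18, Asb11, Asb10 and Asb15, and from Asb18 down each range overlapped the next. Asb15 thus stood beside Asb12 in control hearts, at an Asb15 to Asb12 ratio of FPKM of 0.464 to 1.23 (median 1.14), and at the bottom in HG hearts, at 0.0129 to 0.0333 (median 0.0201). The Asb11 to Asb14 ratio was 0.883 to 1.26 in CON and 0.138 to 0.341 in HG. By contrast the Asb2 to Asb8 ratio was 2.90 to 3.51 in CON and 2.79 to 3.22 in HG, with overlapping ranges.

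Summed over the 8 genes, the level was 121.6 to 132.6 FPKM in CON and 92.1 to 101.8 FPKM in HG. As a mean of the shares in each library, Asb2 made up 55.4% of this sum in CON and 64.2% in HG, whereas Asb15 made up 10.2% and 0.227%. In both groups Asb2 held the larger part of the message of these 8 genes.

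Within groups, the members did not vary as a block. After the group means were subtracted, the 28 pairs of members had a median Pearson r of 0.16 over the 10 libraries, from -0.63 for Asb8 with Asb15 to 0.83 for Asb11 with Asb18, and 18 pairs were above 0. Asb12 and Asb14 stood at 0.74, Asb10 and Asb11 at 0.67, and Asb10 and Asb15 at -0.59. The points share libraries and, for Asb10, Asb11 and Asb15, few reads in HG, and the values are descriptions.

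For each member that averaged 1 FPKM or more, the genes with the most similar deviations were taken from all 14542 genes tested, as the highest r over the 10 libraries. For Asb15 these were Guca2a (0.96), Ubash3b (0.96) and Trmu (0.95), and for Asb11 Cpt2 (0.95), Prob1 (0.95) and Cops6 (0.93). For Asb18 they were Spryd4 (0.94), Dele1 (0.92) and Lrrc10 (0.91), and for Asb14 Gpr135 (0.97), Mfsd8 (0.94) and LOC100911848 (0.94). For Asb12 they were Golga2 (0.95), Tp53inp1 (0.94) and LOC102554457 (0.93), for Asb2 Tmem250 (0.97), Dolk (0.96) and Med16 (0.96), and for Asb8 Ten1 (0.92), Rell2 (0.91) and LOC120097928 (0.91). No gene recurs among these lists, and Guca2a (0.287 FPKM), Rell2 (0.230 FPKM), LOC120097928 (0.171 FPKM), LOC100911848 (0.231 FPKM) and Gpr135 (0.977 FPKM) averaged under 1 FPKM, so few reads lie behind their r. All these r values are the highest of 14542 genes over 10 libraries, where large values can arise by chance, and they are descriptions. Over the whole pattern of 10 libraries, with the difference between groups kept in, the 5 genes most like Asb15 were Pde4a, Dnajb2, Gatd3a, Itga7 and Polr3k, at r of 0.985 to 0.989. Their own log2 fold changes were -0.82, -0.52, -0.66, -1.44 and -1.11, all far smaller than that of Asb15.

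The remaining family members, which the rule did not name, were tested with limma on log2(FPKM + 0.1), and a gene was called at a Benjamini-Hochberg adjusted p under 0.05. Of all genes tested, 28.4% were called higher and 11.8% lower in HG, so a share of a list near these values is no result about the list. Of 10 other Asb genes, 8 passed the filter, of which 1 was higher, 1 lower and 6 were not called. Their median log2 fold change was -0.03.

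Asb4, an adaptor best known from the placenta and blood vessels, fell from 30.4 ± 1.22 to 21.9 ± 2.81 FPKM (SD, n = 5 each; log2 fold change -0.48, limma adjusted p = 0.000492), and HG lay wholly below CON. Asb7 rose from 3.61 ± 0.319 to 4.20 ± 0.286 FPKM (SD, n = 5 each; 0.22, limma adjusted p = 0.0385), with overlapping groups. Without CON 1, CON 4, CON 5, HG 1, HG 2, HG 3 or HG 5 the list held 1 called gene, Asb4. Among the alternatives the Asb7 limma adjusted p lay between 0.000652 and 0.267. Log2 fold changes of Asb6, Asb3, Asb13 and Asb1, which were not called, were 0.08, 0.14, -0.06 and -0.01. None of these 8 genes lay beyond a fold of 2. Asb9 and Asb17 were below the filter. Asb9, which lies beside Asb11, was near the floor, at 0.0370 to 0.184 FPKM in CON and at 0 in every HG library. With no filter, 0 genes of this list were called higher and 2 lower.

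**Figure D2:**
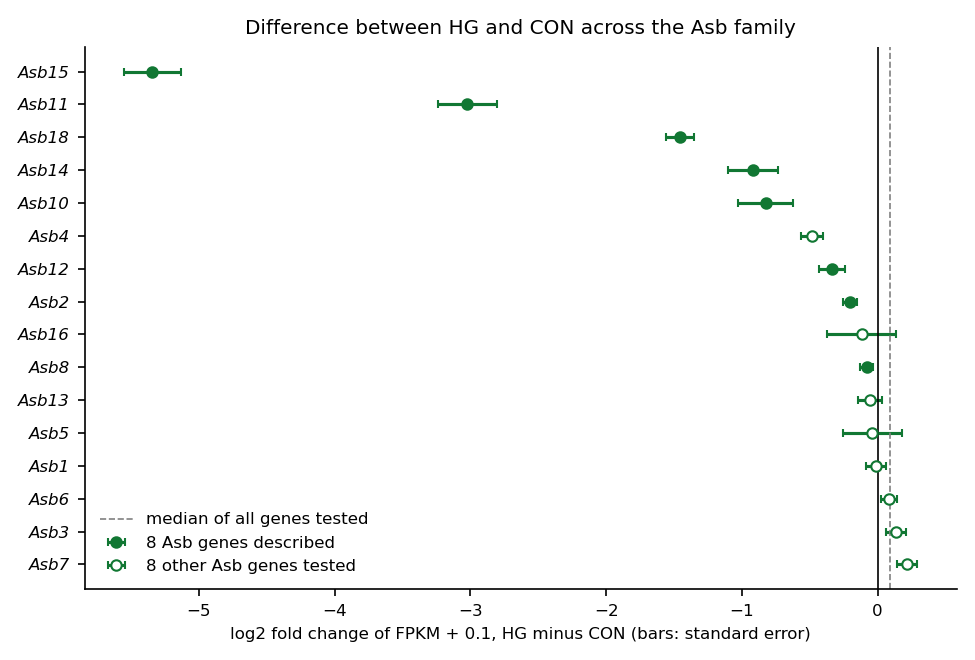
Log2 fold change (HG minus CON, bars: SE) of the 8 Asb genes described (filled) and the 8 other Asb genes that passed the filter (open), ordered by value, with the median of all genes tested (0.09) as a dashed line. Asb15, Asb11 and Asb18 lie under -1, and the open symbols lie between -0.48 and 0.22.

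The ligase that the adaptors serve was measured through 11 genes. Of these, 7 were called higher and 1 lower (all genes tested: 28.4% higher, 11.8% lower). The median log2 fold change was 0.14, and each change was small. With median-of-ratios factors, which put the median of all genes at 0.01, 0 of the 11 were called higher and 1 lower. Quantile normalization, which put that median at 0.02, called 3 of the 11 higher and 1 lower. The number called thus depended on the scaling. The 7 genes called higher kept a log2 fold change above 0 under every alternative, with the lowest at 0.036 for Arih2. Leaving out HG 1 left 7 called, and leaving out any other library left 3 to 5. Cul5, the scaffold, averaged 12.8 ± 0.670 FPKM in CON hearts and 13.3 ± 0.678 FPKM in HG hearts (SD, n = 5 each; log2 fold change 0.06, limma adjusted p = 0.418). Rnf7, its RING partner, was called higher (0.15, limma adjusted p = 0.0189). Elongin C (Eloc) was called higher (0.14, limma adjusted p = 0.0351), and elongin B (Elob) was not (0.09, limma adjusted p = 0.0648). Arih2, the ligase that works with neddylated cullin-5, was called higher (0.13, limma adjusted p = 0.0419).

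Of the NEDD8 pathway, the modifier Nedd8 (0.14, limma adjusted p = 0.0465) and the activating subunit Nae1 (0.19, limma adjusted p = 0.0429) were called higher. The other activating subunit, Uba3, was not (0.08, limma adjusted p = 0.214). Ube2f, the enzyme that conjugates NEDD8 to cullin-5, was the gene called lower, from 30.2 ± 1.77 to 27.3 ± 1.48 FPKM (SD, n = 5 each; log2 fold change -0.15, limma adjusted p = 0.0338), and its value was 0.11 with libraries scaled to cardiomyocyte markers. Cops5, the subunit of the COP9 signalosome that removes NEDD8, was called higher (0.14, limma adjusted p = 0.0167). Cand1, which lets cullins exchange their substrate receptors, rose from 45.0 ± 1.10 to 50.9 ± 1.10 FPKM (SD, n = 5 each; 0.18, limma adjusted p = 0.000946), and it was the gene of this list whose groups did not overlap.

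Proteins that Asb ligases are reported to bind, and 1 muscle relative of such proteins, were followed at the level of their message, which does not report on their degradation. Of 10 genes, 4 were called higher and 1 lower (all genes tested: 28.4% higher, 11.8% lower), and with median-of-ratios factors 2 were called. The median log2 fold change of the 10 was 0.13. Flna, a filamin and Asb2 substrate (90.5 ± 6.46 to 105.9 ± 11.6 FPKM, SD, n = 5 each; 0.22, limma adjusted p = 0.0301), was called higher, and with median-of-ratios factors it was not (0.13, limma adjusted p = 0.176). Flnc, the filamin of striated muscle, was listed as the relative of reported substrates, and it was not called (0.02, limma adjusted p = 0.767).

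Tcf3, a transcription factor that Asb2 is reported to target, rose from 31.4 ± 2.43 to 41.2 ± 3.58 FPKM (SD, n = 5 each; 0.39, limma adjusted p = 0.000710), with HG wholly above CON. Des, the intermediate filament protein of muscle, fell from 600.1 ± 32.0 to 475.9 ± 37.2 FPKM (SD, n = 5 each; -0.34, limma adjusted p = 0.000625), with HG wholly below CON. Scaled to cardiomyocyte markers, Des stood at -0.079 and was not called (limma adjusted p = 0.158). Bik, a pro-apoptotic protein targeted through Asb11, was called higher (0.40, limma adjusted p = 0.0180). Log2 fold changes of Rpn1, Tbk1 and Jak2, which were not called, were -0.01, 0.04 and -0.01.

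**Figure D3:**
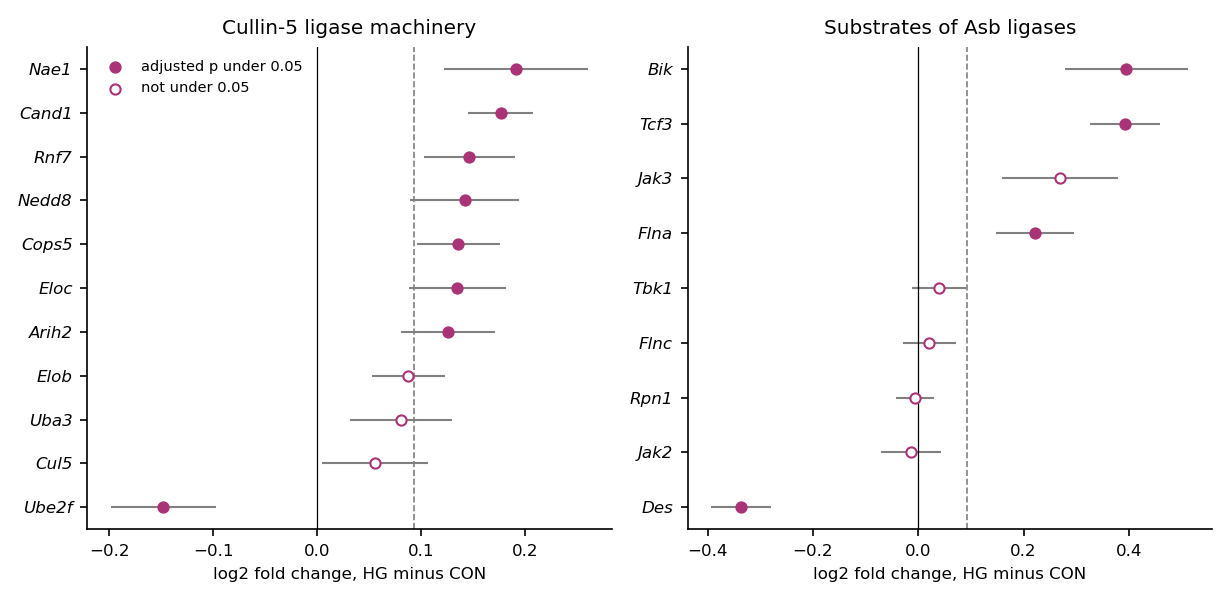
Log2 fold change (HG minus CON, bars: SE) of 11 genes of the cullin-5 ligase machinery (left) and of genes of reported Asb substrates with their relative Flnc (right, 1 of the 10 not shown), filled where the limma adjusted p is under 0.05, with the median of all genes tested (0.09) as a dashed line. The machinery lies between -0.15 and 0.19, and Des at -0.34 and Bik at 0.40 bound the substrates.

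Other adaptors with a SOCS box compete for the same elongins. Of 17 such genes, 2 were called higher and 4 lower (all genes tested: 28.4% higher, 11.8% lower), and the median log2 fold change was -0.00. The balance turned with the scaling, from 1 higher and 7 lower with median-of-ratios factors to 10 higher and 1 lower with scaling to cardiomyocyte markers. Of all 14542 genes tested, the former called 2271 higher and 2551 lower, and the latter 9409 higher and 584 lower. Wsb1, an adaptor whose substrates include an iodothyronine deiodinase, rose from 32.8 ± 1.88 to 51.0 ± 5.03 FPKM (SD, n = 5 each; 0.63, limma adjusted p = 2.39e-05), with HG wholly above CON. Socs3, a feedback inhibitor of cytokine signaling, was called higher (0.35, limma adjusted p = 0.0308), and its relative Cish lower (-0.42, limma adjusted p = 0.0289). The SPRY domain adaptors Spsb1 (-0.66, limma adjusted p = 0.000663), Spsb4 (-0.31, limma adjusted p = 0.00253) and Spsb3 (-0.18, limma adjusted p = 0.00576) fell, and their groups did not overlap. With libraries scaled to cardiomyocyte markers Spsb3 stood at 0.076, and Spsb4 (-0.054, limma adjusted p = 0.466) and Cish (-0.17, limma adjusted p = 0.264) were not called.

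Whether genes beside the members on the chromosome differed as well was asked with the 3 nearest protein-coding genes on each side, taken from the gene order of the RefSeq annotation. The members lie on chromosomes 4 (Asb10 and Asb15), 6 (Asb2), 7 (Asb8), 9 (Asb18), 16 (Asb14) and X (Asb11 and Asb12). Of 48 neighbours, 41 were among the deposited genes and 32 passed the filter. Of these 32, 13 were called higher, 3 lower and 16 not (all genes tested: 28.4% higher, 11.8% lower). With median-of-ratios factors 8 were called higher and 4 lower, and with scaling to cardiomyocyte markers 22 higher and 0 lower. The same 2 settings called 2271 higher and 2551 lower, and 9409 higher and 584 lower, of all 14542 genes tested. None of the 32 lay beyond a fold of 2, and their median log2 fold change was 0.15.

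Beside Asb15, Ndufa5, a subunit of mitochondrial complex I, fell from 261.1 ± 25.7 to 193.7 ± 20.3 FPKM (SD, n = 5 each; -0.43, limma adjusted p = 0.000829). The other Asb15 neighbours tested were named after their values were seen. Iqub was called lower (-0.49, limma adjusted p = 0.0209), and the actin filament regulators Lmod2 (-0.13, limma adjusted p = 0.101) and Wasl (0.08, limma adjusted p = 0.186) were not called. With cardiomyocyte marker scaling neither Ndufa5 (-0.17, limma adjusted p = 0.0772) nor Iqub (-0.25, limma adjusted p = 0.190) was called. Each differed by far less than the -5.34 of Asb15.

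Pfkm, the muscle phosphofructokinase beside Asb8, fell from 109.3 ± 4.26 to 86.4 ± 4.02 FPKM (SD, n = 5 each; -0.34, limma adjusted p = 6.33e-05), a larger difference in size than that of Asb8 itself. Scaled to cardiomyocyte markers, Pfkm stood at -0.083 (limma adjusted p = 0.156) and Asb8 at 0.18. The other neighbours with the smallest adjusted p were called higher. Ackr3, a chemokine scavenging receptor near Asb18, was at 0.70 (limma adjusted p = 0.000399), and Fancb, of the Fanconi anemia pathway and near Asb11, at 0.43 (limma adjusted p = 0.00104). Zc4h2, near Asb12, was at 0.49 (limma adjusted p = 0.00118). Arf4, a small GTPase of the Golgi near Asb14, was at 0.23 (limma adjusted p = 0.00137), and the RNA helicase Ddx24, near Asb2, at 0.20 (limma adjusted p = 0.00169).

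**Figure D4:**
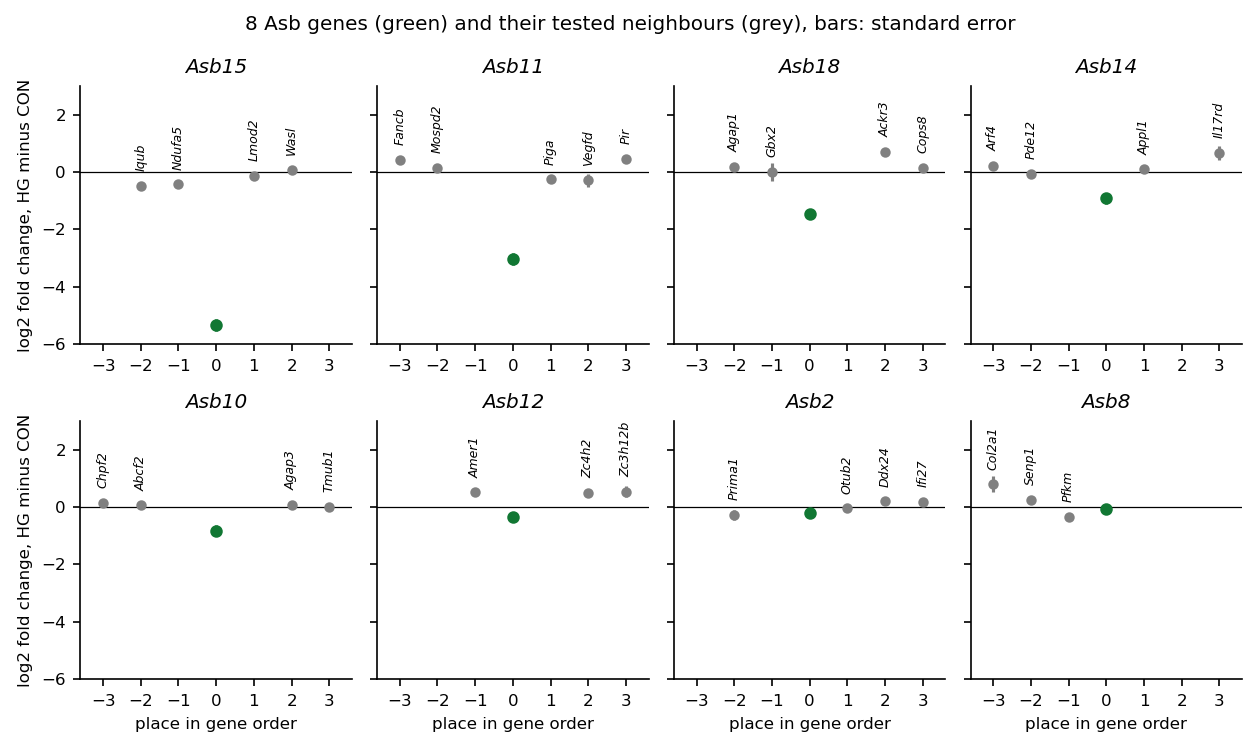
Log2 fold change (HG minus CON, bars: SE) of each Asb gene (green, place 0) and of its neighbours that passed the filter (grey, named, 1 not shown), by place in the gene order. Around Asb15 the neighbours lie between -0.49 and 0.08, whereas Asb15 lies at -5.34.

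The summed level of the 15 cardiomyocyte markers was 34026 to 35397 FPKM in CON and 27641 to 31307 FPKM in HG, a log2 difference of -0.26 (two-sided exact permutation test, p = 0.00794, the smallest that 5 against 5 can give). By limma 0 of these 15 genes were called higher and 11 lower (all genes tested: 28.4% higher, 11.8% lower). In bulk hearts, fewer cells of a type and less message per cell cannot be told apart. The differences of Asb2 and Asb8 were smaller in size than that of the markers. With each library divided by its marker sum, which moved the median of all genes from 0.09 to 0.34, Asb2 stood at 0.053, Asb8 at 0.18 and Asb12 at -0.08, whereas Asb15 stood at -5.13, Asb11 at -2.80, Asb18 at -1.22, Asb14 at -0.67 and Asb10 at -0.63.

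Skeletal muscle, which also expresses several Asb genes, was followed through 17 markers, of which 15 were listed and 9 passed the filter. Of these 9, 3 were called higher (Myog, Tnni2 and Mylpf) and 0 lower (all genes tested: 28.4% higher, 11.8% lower). The summed level of the listed markers was 49.0 to 65.3 FPKM in CON and 52.9 to 76.7 FPKM in HG (log2 difference 0.24, two-sided exact permutation test, p = 0.0952). Without CON 1 the difference was 0.32 (exact permutation, p = 0.0159). Casq1, which the heart also expresses, held most of this sum, at 37.3 to 66.5 FPKM. The myogenic factor Myod1 was at 0.188 FPKM or less in every library, and Myh4, a myosin of fast fibres, at 0 in all CON libraries. The summed level of these markers was not lower in HG, but it mostly follows Casq1 and says little about the others. Casq1 was at 40.0 to 57.2 FPKM in CON and 37.3 to 66.5 FPKM in HG. As a mean of log2 values over the list, in which no gene dominates, the difference was 0.38 (exact permutation, p = 0.0159).

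Of the other lists, smooth muscle differed by 0.40 in log2 summed level (exact permutation, p = 0.00794), with 680.9 to 801.6 FPKM in CON and 912.3 to 1147 FPKM in HG. Acta2 held most of this sum. Of the 5 smooth muscle markers, Acta2, Tagln and Cnn1 were called higher. Myh11 (0.24, limma adjusted p = 0.183) and Smtn (-0.06, limma adjusted p = 0.494) were not called. Fibroblast markers differed by -0.14 (p = 0.0238, exact permutation), endothelium by 0.06 (p = 0.0873, exact permutation), macrophages by 0.29 (p = 0.0238, exact permutation) and erythroid cells by -0.54 (p = 0.0238, exact permutation). The fibroblast and erythroid lists were mixed. Of 6 fibroblast markers, Col3a1 and Dcn were called lower and Pdgfra and Tcf21 higher. Of 12 erythroid markers 7 were called lower, among them the abundant globins Hba-a1 and Hbb, and the embryonic globins Hbz (log2 fold change 4.07), Hbe1 (2.24) and Hbe2 (2.12) were called higher. Liver transcripts were at 3.12 to 75.8 FPKM in CON and 0.856 to 2.40 FPKM in HG (exact permutation, p = 0.00794). The part of these cell types in the Asb differences was not tested.

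**Figure D5:**
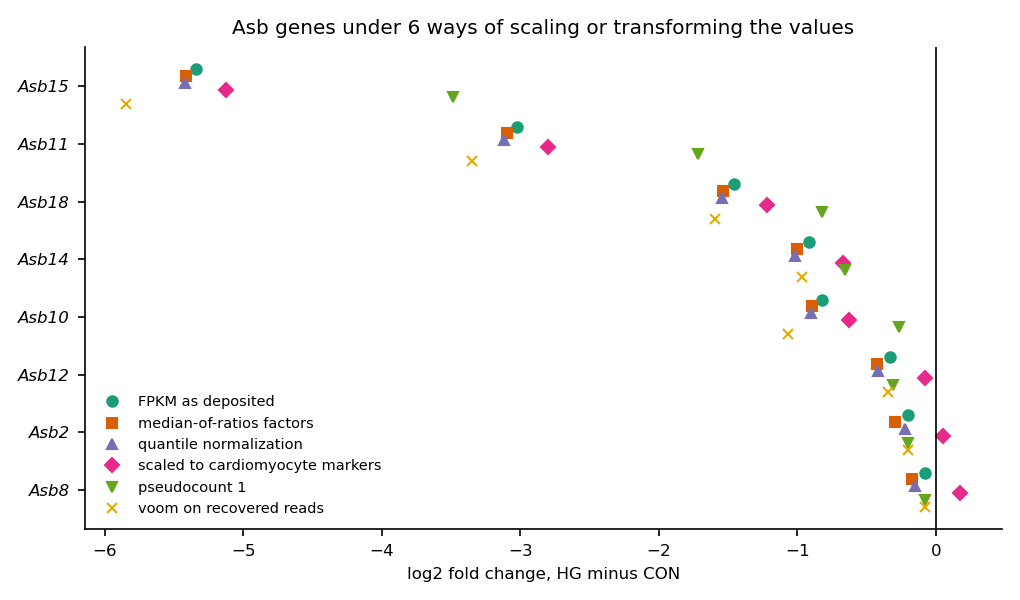
Log2 fold change (HG minus CON) of the 8 Asb genes with FPKM as deposited, with median-of-ratios factors, quantile normalization, scaling to cardiomyocyte markers, an added constant of 1 FPKM, and voom on recovered reads. Asb15 ranges from -5.85 with voom to -3.48 with the constant of 1, and Asb2 and Asb8 cross 0 when scaled to cardiomyocyte markers.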

How the data were processed

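Stranded mRNA libraries of 10 fetal hearts were compared, 5 CON and 5 HG, as the sample titles give them. The authors deposited FPKM values per gene and library. The submitters' processing notes name fastp, HISAT2, HTSeq, R 3.2.0 and the build mRatBN7.2, without the role of each. Whether HTSeq used strand is not given in the sources used here, so a gene and an overlapping antisense gene may share reads. All per-sample columns were used (0 unused). Each FPKM value was a whole multiple of that of 1 read within 0.002 reads (0.05 for very abundant genes) in 100% of values, which gave the read numbers.

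The 8 genes and all gene lists were chosen with earlier results of these data known. Genes averaging 0.1 FPKM or more (14542, with 3483 below) were compared as log2(FPKM + 0.1) by limma 3.58.1 with a trend in R 4.3.3, with Benjamini-Hochberg adjustment over all of them. The count method that the study names was not used. The deposited FPKM were fitted, with voom on the recovered read numbers as an alternative. The steps were tested on simulated data. Marker sums were compared by two-sided exact permutation tests (Python 3.11.15, scipy 1.17.1). Gene order and promoter windows came from RefSeq (GRCr8), to which 17829 of 18025 genes matched by NCBI Gene number, and no position was carried between builds.

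Named were all members, every called gene of the lists of Asb genes, ligase machinery and substrates with up to 4 not called, up to 8 called SOCS box genes and neighbours by adjusted p, and the most similar genes, and 2 genes that this rule covers are not reported here. Same-numbered CON and HG libraries did not deviate together (r = 0.11, -0.07, -0.13, -0.03 and 0.01), so the numbers were not taken as pairs. Alternatives were pseudocounts of 1 and 0.01, no filter or one at 1 FPKM, quantile normalization, median-of-ratios factors, scaling to cardiomyocyte markers, hemoglobin left out, no trend, the replicate number as a block, Y-linked transcripts as a covariate, voom on recovered reads, ratios of mean FPKM, and each library left out.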

Additional observations from a re-analysis of the deposited data

Results flagged for a closer look

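In each group of 5 libraries the highest and the lowest value were compared with the rest, and 5 of 106 groups of values held a library whose gap to the others was over 0.71 of the group's range. Chance alone marks about 1 in 20 groups. Among the 8 Asb genes this was Asb2, at 64.5 FPKM in CON 2 against 71.4 to 73.3 FPKM in the other CON libraries, and without CON 2 its log2 fold change was -0.24. Asb15 in CON 1, at 7.05 FPKM against 13.4 to 16.0 FPKM in the other CON libraries, lay just under this limit.

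Asb13 stood at 5.38 FPKM in CON 3 against 3.91 to 4.29 FPKM in the other CON libraries. Spsb3 stood at 11.3 FPKM in CON 3 against 12.1 to 12.4 FPKM. Ndufa5, beside Asb15, stood at 306.4 FPKM in CON 2 against 243.1 to 254.5 FPKM. The summed skeletal muscle markers stood at 65.3 FPKM in CON 1 against 49.0 to 50.3 FPKM. Most of that gap lay in Casq1, at 57.2 FPKM in CON 1 against 40.0 to 42.8 FPKM in the other CON libraries.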

How the results depend on the processing

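The number of Asb genes beyond a fold of 2 was 3, and 2 to 4 over all alternatives. Asb10, Asb11, Asb12, Asb14, Asb15 and Asb18 kept their direction under every alternative, except that Asb10 does not pass a filter at 1 FPKM. Scaling to cardiomyocyte markers turned the direction of Asb2 (0.053), Asb8 (0.18), Ube2f (0.11), Spsb3 (0.076), Asb1 (0.24), Asb13 (0.19), Lmod2 (0.13), Rpn1 (0.25) and Jak2 (0.24), of which the last 5 were not called with the deposited values. Median-of-ratios factors turned Asb6, Elob, Uba3, Cul5, Flnc, Tbk1 and Wasl, none of them called, to values from -0.070 to -0.0029. With these factors Asb2 stood at -0.29, Asb8 at -0.17 and Asb12 at -0.43, each larger in size than with the deposited values. Scaling to cardiomyocyte markers moved the called genes among all genes tested from 70.7% higher to 94.2% higher (9409 higher and 584 lower). Median-of-ratios factors gave 47.1% and quantile normalization 53.0%.

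Called genes of the cullin-5 machinery numbered 8, but 1 with median-of-ratios factors, 4 with quantile normalization, 3 with no trend and 3 to 7 when a library was left out, with 3 each without CON 1, CON 3 or HG 4. Other Asb genes called numbered 2, but 1 with median-of-ratios factors, 1 with quantile normalization, 5 with cardiomyocyte scaling and 1 to 2 without a library. Called SOCS box genes numbered 6, but 11 with cardiomyocyte scaling. Called substrates numbered 5, but 2 with median-of-ratios factors, 3 with quantile normalization and 9 with cardiomyocyte scaling. The skeletal muscle difference of 0.24 became 0.38 as a mean of log2 values (exact permutation, p = 0.0159) and 0.17 to 0.32 without a library. The cause of these shifts was not tested. The replicate block gave 4 called machinery genes and 1 other Asb gene, as a fit on numbers that do not pair the libraries.

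Depth limits Asb10, Asb11 and Asb15 in HG, where 5 to 25 reads lie behind a value.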
